A study of Mus musculus with 12 samples.

Results

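The enzymes that conjugate or hydrolyse drugs, hormones and lipids were followed together in RNA-seq of mouse liver: the UDP-glucuronosyltransferases (Ugt genes of families 1 to 3), the cytosolic sulfotransferases (Sult) and the carboxylesterases (Ces). Members were taken by symbol alone (Ugt, Sult and Ces followed by a family number, a subfamily letter and, where the family has one, a gene number), with pseudogenes left out. This gave 61 of the 55903 genes in the table, 21 Ugt, 21 Sult and 19 Ces genes. All 61 are protein-coding in GENCODE M21. A mean of at least 1 TPM (transcripts scaled to a common total per library and to transcript length) over all libraries was reached by 35 of them, which were tested, and 26 lay under it. None of the 35 passed an adjusted p of 0.05 in any of the 3 comparisons.

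Glucuronosyltransferases sit in the endoplasmic reticulum and join glucuronic acid, carried by UDP-glucuronate, to bilirubin, steroids, bile acids and drugs. Sulfotransferases work in the cytosol and pass a sulfate from the donor PAPS to phenols, steroids and bile acids, and both conjugates leave the hepatocyte through exporters in its membrane. Carboxylesterases act the other way on many substrates, cutting ester and amide bonds of drugs and of stored lipids, and their products are often handed on to conjugation. The liver is the main site of all of them, and several members are known to differ between male and female mice.

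The study compared liver RNA of 3 groups of mice with 4 libraries each. The first group is a young control. For the second, the title says aged control and the description doxo, hence the name aged/doxo. The third received KSL0608-Se, a compound known only by this code, and doxo again stands in its description. The labels give no strain, sex, age in time units, dose or time of treatment, and they do not say how animals map to libraries, so each p-value measures the spread between these libraries. The series title concerns a photoactivatable way of killing senescent cells. The comparisons ask how aged/doxo liver differs from young control and how treated liver differs from each.

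From 9568 to 11023 genes per library reached 1 TPM. Depth is unknown, since TPM does not preserve it. Hepatocyte markers (9 of 10 listed genes found, all at a mean of at least 1 TPM) summed to between 42757 and 76505 TPM. The kidney tubule list summed to at most 17.5 TPM, in young control library 1, and to 7.39 TPM in aged/doxo library 2. Most of both sums was the single gene Kap, at 16.7 and 6.95 TPM. Muc2 of the intestinal list and Prss1, Cpa1 and Cela3b of the pancreas list were at 0 in every library. The intestinal list nevertheless summed to between 31.3 and 87.6 TPM, mostly from Fabp2. The pancreas list summed to between 21.5 and 91.7 TPM, mostly from Cela1. Aged/doxo library 2 had 27.6% of its TPM in mitochondrially encoded genes, where the other 11 ranged from 8.10% to 12.4%. This library and young control library 1 stood apart.

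The 9 Ugt1a genes are read from one locus on chromosome 1 (GRCm38, chr1:88055388-88220002, plus strand, from the start of Ugt1a10 to the end of Ugt1a7c). In the transcripts used here each starts with a first exon of its own. The Ugt1a6b transcript has 6 exons, and the exon shown for it below is not its first. All splice to the same following exons, of which 3 are identical in position in all 9 transcripts (chr1:88215044-88215175, chr1:88215795-88215882 and chr1:88216138-88216357). The last 737 coding bases are the same in every one. The splice into the shared part is shown for the 6 tested members because everything after it is common to them. In these sequences, taken from GENCODE M21 transcripts, lower case marks the last 24 bases of the gene's own exon and capitals mark the first 18 bases of the shared exon at chr1:88215044-88215061.
Ugt1a1: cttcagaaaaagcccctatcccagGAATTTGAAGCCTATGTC
Ugt1a5: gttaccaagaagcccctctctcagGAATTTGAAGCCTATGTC
Ugt1a6a: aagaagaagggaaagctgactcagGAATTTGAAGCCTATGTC
Ugt1a6b: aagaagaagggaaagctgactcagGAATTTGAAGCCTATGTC
Ugt1a7c: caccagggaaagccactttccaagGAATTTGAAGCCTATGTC
Ugt1a9: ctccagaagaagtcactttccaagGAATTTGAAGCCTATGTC

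The own part is identical in Ugt1a6a and Ugt1a6b over these bases. Of all 50-base stretches in the Ugt1a6a transcript, 97.7% also occurred in an annotated transcript of another gene, and 95.8% in one of Ugt1a7c. For Ugt1a6b, 80.7% occurred in one of Ugt1a7c. These shares reach into the exons of their own. In Ugt1a1 the share with any gene was 58.2%, and in the Ugt1a7c transcript of recorded length it was 40.9%. That transcript's last exon runs 998 bases past the furthest of the others. How the authors' estimator divided shared reads cannot be seen in the table, so levels of single Ugt1a genes are uncertain. Sharing was also high between Ces3a and Ces3b (30.9% of the stretches of Ces3a, 26.1% of those of Ces3b). It was high too between Ugt2b5 and Ugt2b38 (34.8% of the stretches of Ugt2b5, 34.1% of those of Ugt2b38). In Ces2c 42.2% and in Ces2a 22.2% of the stretches occurred in another gene, but only 6.66% and 2.35% in their own family. Sharing was 0 in Sult2a7, Sult2a8, Ces4a and Ugt2b1. The length recorded in the table for each of the 61 members equals that of one of its protein-coding transcripts in GENCODE M21.

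Neighbours with similar promoters also differed widely in level. RefSeq promoters (GRCm38.p6) were matched by symbol for 51 of the 61 members, and the 250 bases before each start were aligned for 176 pairs of the same family, with a median of 150 identical bases. The pair of Ugt2b37 and Ugt2b38 had the most, 225. Ugt2b5 shared 212 of its 250 bases with Ugt2b38 and 200 with Ugt2b37. These 3 are shown because Ugt2b5 averaged 407 TPM in young control liver, Ugt2b38 11.5 TPM and Ugt2b37 0.79 TPM. Their transcripts share sequence, so these levels also rest on how the estimator divided common reads. All 3 promoters lie on the minus strand of chromosome 5, Ugt2b5 at chr5:87140341-87140590, Ugt2b38 at chr5:87424204-87424453 and Ugt2b37 at chr5:87254789-87255038. Capitals mark bases that mismatch Ugt2b5 or have no partner in it. Bases that Ugt2b5 has in addition are not marked. The Ugt2b37 window reaches into the gene as GENCODE M21 has it, which ends at 87254804.
Ugt2b5: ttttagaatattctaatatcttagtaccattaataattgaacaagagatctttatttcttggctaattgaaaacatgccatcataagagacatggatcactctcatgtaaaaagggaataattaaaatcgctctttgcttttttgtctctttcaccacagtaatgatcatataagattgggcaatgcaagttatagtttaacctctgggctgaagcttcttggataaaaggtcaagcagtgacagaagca
Ugt2b38: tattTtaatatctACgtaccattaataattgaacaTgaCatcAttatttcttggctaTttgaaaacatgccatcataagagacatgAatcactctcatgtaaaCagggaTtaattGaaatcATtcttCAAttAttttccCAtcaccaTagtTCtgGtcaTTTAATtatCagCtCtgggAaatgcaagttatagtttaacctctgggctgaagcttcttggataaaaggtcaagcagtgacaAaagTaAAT
Ugt2b37: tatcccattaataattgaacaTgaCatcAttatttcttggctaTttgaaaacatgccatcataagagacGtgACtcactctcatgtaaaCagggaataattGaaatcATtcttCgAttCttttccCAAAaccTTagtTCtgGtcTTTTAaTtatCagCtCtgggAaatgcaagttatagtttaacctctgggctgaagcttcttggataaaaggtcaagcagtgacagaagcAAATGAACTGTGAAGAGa

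Ces1c and Ces1b on chromosome 8 shared 213 of 250 bases, although the Ces1b window reaches into its GENCODE gene, which ends at 93080017. Ces1c averaged 1073 TPM in young control liver and Ces1b 28.3 TPM.

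Levels differed far more between members than between groups. Ces1c, a serum-type carboxylesterase that also cuts many prodrugs in mouse plasma, and Ces3a, a carboxylesterase of the endoplasmic reticulum of hepatocytes, were the most abundant members in every group. Ces3a averaged 1124 ± 254 TPM in young control (SD, n = 4), 953 ± 278 in aged/doxo and 1148 ± 136 in treated liver. Ces1d averaged 327 ± 147, 271 ± 186 and 383 ± 71.1 TPM in the same order, and Ces1f 252 ± 88.4, 219.9 ± 102 and 316 ± 27.6 TPM. TPM is scaled by transcript length, and on that scale Ces1c lay above Ces3a in each of the 8 aged/doxo and treated libraries and in 1 of the 4 young control libraries.

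**Figure D1:**
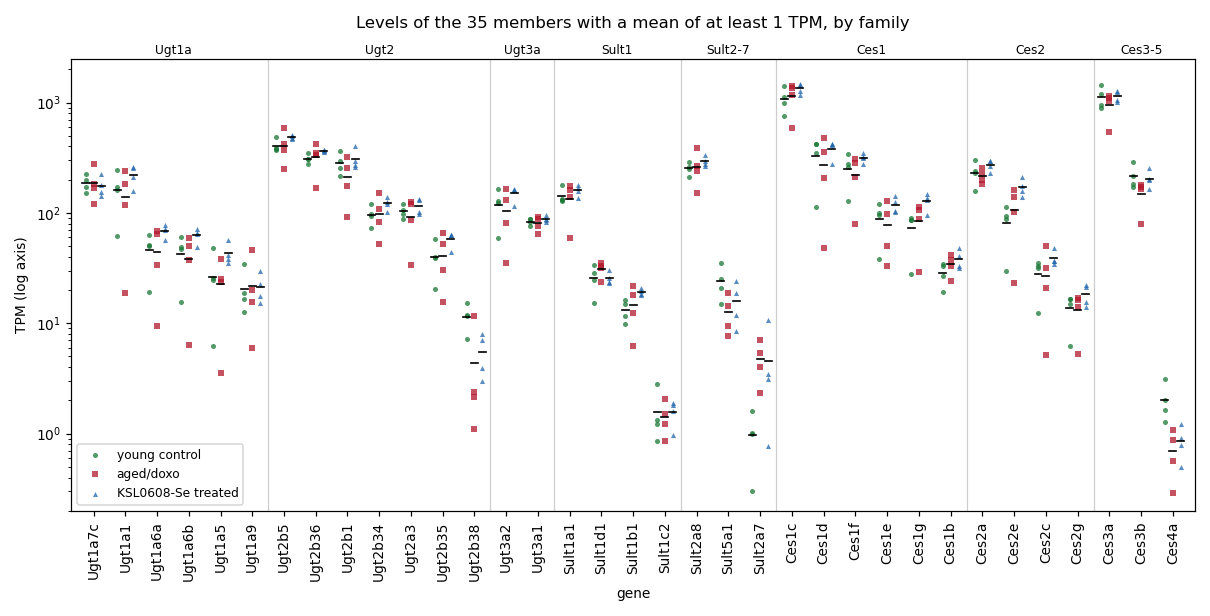
TPM on a log axis of each of the 35 tested members, grouped by family and ordered by mean within it. Each point is a library (circles young control, squares aged/doxo, triangles KSL0608-Se treated) and each bar a group mean. Ces1c and Ces3a are the highest at 953 to 1344 TPM in group means, and Ces4a, Sult1c2 and Sult2a7 the lowest.

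Among the glucuronosyltransferases, the Ugt2 family summed to 1249 ± 187 TPM in young control, 1173 ± 447 in aged/doxo and 1462 ± 94.4 in treated liver (SD, n = 4). Ugt2b5, Ugt2b36 and Ugt2b1 led it. Ugt2b1, which conjugates steroids and drugs, averaged 282 ± 62.8, 211 ± 98.0 and 308 ± 63.7 TPM in the 3 groups. Ugt1a1, the enzyme that conjugates bilirubin, and Ugt1a7c made up most of the Ugt1a total. Ugt3a1 was among the steadiest members at 83.4 ± 5.24, 80.3 ± 12.3 and 88.6 ± 5.67 TPM. Ugt3a2, at 118 ± 43.7, 103 ± 56.9 and 150.2 ± 23.2 TPM, spread more widely. Ugt3a enzymes use sugars other than glucuronic acid. Ugt1a8, Ugt1a2 and Ugt2a2 stayed at or under 0.29 TPM in every library, and Ugt2a1 was listed at 0 in all 12.

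The sulfotransferases were carried by 2 genes. Sult2a8, which sulfates bile acids in mouse liver, made up between 88.9% and 96.0% of the summed TPM of the Sult2 to Sult7 genes in each library. Sult1a1, the phenol sulfotransferase, made up between 59.8% and 81.9% of the Sult1 sum. Sult1d1 averaged 25.5 ± 7.80, 30.9 ± 4.90 and 25.8 ± 3.44 TPM and Sult1b1, which sulfates thyroid hormone, 13.1 ± 2.89, 14.7 ± 6.90 and 19.2 ± 1.16 TPM. Sult1e1, the oestrogen sulfotransferase, was at no more than 0.26 TPM in any library. Sult2a1 and Sult3a1, which are known as female-predominant in mouse liver, were listed at 0 in all 4 young control libraries and reached at most 0.14 and 0.22 TPM elsewhere. Sult1c1, Sult2a3, Sult2a4 and Sult6b2 were listed at 0 in all libraries, as was Ces1h.

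Among the carboxylesterases, Ces2a, Ces2e and Ces2c made up nearly all of the Ces2 sum, which averaged 355 ± 102 TPM in young control, 361 ± 109 in aged/doxo and 501 ± 61.5 in treated liver. Ces2c averaged 28.2 ± 10.5, 27.0 ± 18.9 and 39.0 ± 6.24 TPM. Ces1a, Ces2b, Ces2f and Ces2h stayed at or under 0.58 TPM in every library. Ces5a, an epididymal carboxylesterase, reached at most 0.06 TPM.

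**Figure D2:**
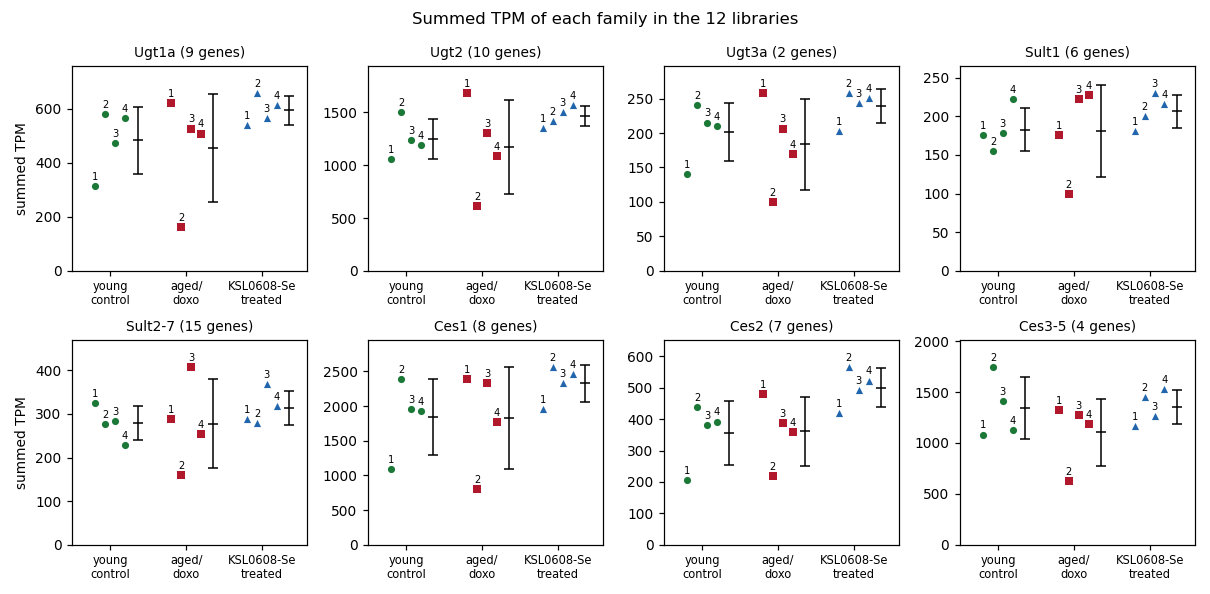
Summed TPM of each family in each library, with the library number beside each point and the mean ± SD (n = 4) as a bar at the right of each group. Aged/doxo library 2 is the lowest of the 12 in 7 of the 8 families, and in Ces2 young control library 1 lies under it (206 against 217 TPM).

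The spread within groups followed single libraries. The 61 members summed to 0.278% of TPM in aged/doxo library 2 and 0.439% in young control library 1. The remaining 10 ranged from 0.556% to 0.748%. Aged/doxo library 2 was the lowest of all 12 for 29 of the 35 tested members (82.9%), against 54.4% of all 10883 tested genes. It was the lowest of its own group for 34 of the 35. The median member stood there at 35.9% of the mean of the other 3 aged/doxo libraries, while the median of all tested genes stood at 53.4%. In young control library 1 the median member stood at 69.02% of the other 3 young control libraries and the median gene at 60.9%. In bulk liver, fewer hepatocytes and less RNA per hepatocyte cannot be told apart. The part of the mitochondrial share in these values was not tested.

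The members low in one of these libraries tended to be low in the other (Spearman's rho 0.72 over 35 members, which share the libraries and, in part, their sequence). Ugt1a1 stood at 10.4% of the other aged/doxo libraries in library 2 and at 32.4% of the other young control libraries in library 1. Ces1d, a triacylglycerol hydrolase of the endoplasmic reticulum, stood at 13.9% and 28.5%. Ces2e stood at 17.5% and 30.2%. Other members did not share this pattern. Sult1d1 stood at 108% and 148%, Ugt3a1 at 76.1% and 98.2%, and Ugt1a7c at 56.8% and 107%. Ugt2b38 was low in aged/doxo library 2 (20.5%) and high in young control library 1 (148%).

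**Figure D3:**
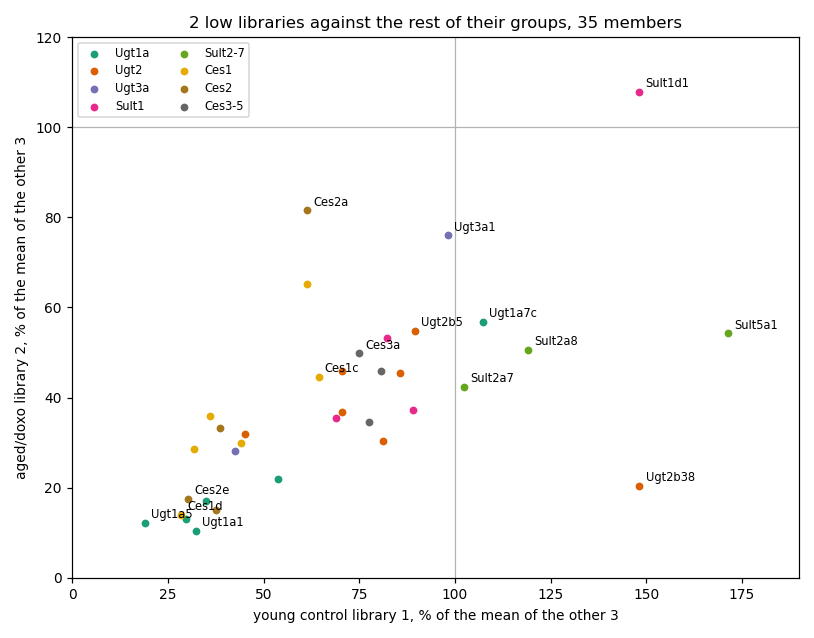
Each point is one of the 35 tested members, coloured by family. The x axis gives its TPM in young control library 1 and the y axis that in aged/doxo library 2, each as a percentage of the mean of the other 3 libraries of the group. Ugt1a1, Ugt1a5 and Ces1d lie at the lower left, and Sult1d1 is the single member above 100% on both axes.

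The treated libraries were the most alike. The median coefficient of variation of the 35 members was 34.9% in young control, 45.2% in aged/doxo and 16.0% in treated liver, beside 29.9%, 36.9% and 17.7% over all tested genes. Without young control library 1 the young control median was 16.0%, and without aged/doxo library 2 the aged/doxo median was 26.6%. Ugt2b36 lay between 358 and 374 TPM in the 4 treated libraries and between 168 and 419 TPM in the aged/doxo libraries.

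Within Ugt1a the balance of members shifted from library to library. Ugt1a1 stood at 62.2, 243, 162 and 172 TPM in young control libraries 1 to 4, at 239.7, 18.8, 184 and 119 TPM in the aged/doxo libraries and at 158, 257, 214 and 261 TPM in the treated libraries. Ugt1a7c stood at 198, 153, 173 and 227 TPM, then 167, 119, 184 and 279 TPM, then 224, 179, 156 and 143 TPM. The groups overlapped for both. Ugt1a7c therefore took between 23.2% and 73.0% of the Ugt1a sum, most in aged/doxo library 2 and next in young control library 1 (63.1%). The ratio of Ugt1a1 to Ugt1a7c, which no scaling of whole libraries changes, ran from 0.157 in aged/doxo library 2 to 1.83 in treated library 4. Since the transcripts share much of their 3′ part, these are the estimator's divisions between members. The last exon of Ugt1a7c runs 998 bases past the others, so its level can also rest on reads outside its first exon. Annotated Ugt1a7c transcripts also hold 95.8% of the stretches of Ugt1a6a and 80.7% of those of Ugt1a6b, so its level can include such reads too. The part of either in the shares and the ratio was not tested.

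**Figure D4:**
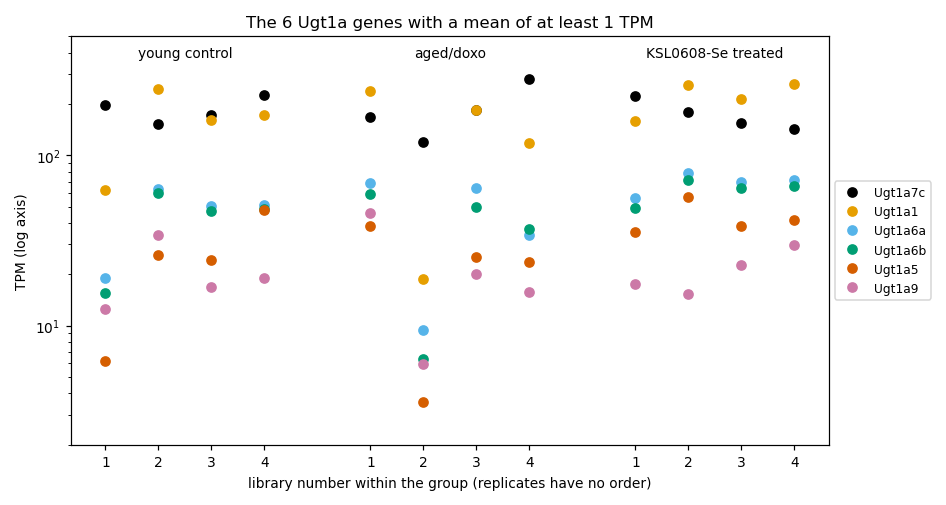
TPM on a log axis of the 6 tested Ugt1a genes in each of the 12 libraries. In aged/doxo library 2 and young control library 1, Ugt1a1, Ugt1a5, Ugt1a6a, Ugt1a6b and Ugt1a9 are the lowest of their group. Ugt1a7c is also the lowest of its group in aged/doxo library 2 (119 TPM), but second highest of 4 in young control library 1.

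In aged/doxo against young control, 0 of the 35 members passed limma's adjusted p of 0.05, where 1 of 10883 genes did (0.00919%). At a limma unadjusted p under 0.05 there were 4 members, 1 higher and 3 lower in aged/doxo, where 1.98% of all genes lay. Ces4a and Sult2a7 are among the 4, and each passed the 1 TPM filter through the groups where it was high. No weight is therefore put on this count. With a mean of at least 5 TPM required, 2 of 32 members lay there, beside 1.36% of all genes. The log2 fold change of TPM + 1 was negative for 28 and positive for 7 of the 35 (20%), where 35.3% of all genes were positive. The members' median was -0.14, beside -0.08 over all genes. Under median-of-ratios scaling, which moves the median of all genes by 0.08, 19 of 35 were negative with a median of -0.06, and 7 lay under an unadjusted p of 0.05. Over all alternatives 2 to 7 members did. The direction also rested on aged/doxo library 2. Without it 28 of the 35 (80%) were positive, beside 74.9% of all genes, and the median was 0.20, beside 0.10 over all genes. Without that library and young control library 1 together, 18 of 35 (51.4%) were positive, beside 41.2% of all genes. The median was then 0.01, beside -0.04.

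Ces4a (ENSMUSG00000060560, chr8:105131800-105150109), a carboxylesterase beside Ces3b in the chromosome 8 cluster, was at 1.65, 3.11, 2.00 and 1.28 TPM in young control and at 1.08, 0.29, 0.87 and 0.56 TPM in aged/doxo liver. Every aged/doxo library lay under every young control library. It had a log2 fold change of -0.81 (SE 0.23, 95% interval -1.31 to -0.32, limma adjusted p = 1). Sult2a7 (chr7:14465051-14494230), of the hydroxysteroid sulfotransferases, was at 0.99, 0.30, 1.01 and 1.59 TPM in young control and at 4.03, 2.33, 7.10 and 5.34 TPM in aged/doxo liver, again without overlap. Its log2 fold change was 1.499 (SE 0.47, interval 0.49 to 2.51, limma adjusted p = 1). These were the only members whose groups did not overlap, 1 higher and 1 lower, where 0.689% and 0.312% of all genes did so. Both stayed on their side without the 2 low libraries, at -0.74 and 1.75. Ces4a averaged 2.01 TPM in young control, 0.70 in aged/doxo and 0.855 in treated liver, and Sult2a7 0.97, 4.70 and 4.51 TPM. Each thus reached the mean of 1 TPM through the groups where it was high, and no weight is put on its lack of overlap, its p-value or its interval.

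Ugt2b38 (ENSMUSG00000061906, chr5:87409942-87424203), of the same cluster as the abundant Ugt2b5, was at 15.2, 11.8, 11.8 and 7.19 TPM in young control and at 11.7, 1.11, 2.40 and 2.15 TPM in aged/doxo liver. Aged/doxo library 1 overlapped the young control range and the other 3 did not. This gave a log2 fold change of -1.56 (SE 0.47, interval -2.58 to -0.54, limma adjusted p = 1). Sult5a1, a sulfotransferase of unsettled substrate, was at 34.8, 25.1, 20.9 and 15.0 TPM against 18.9, 7.74, 14.4 and 9.54 TPM, a log2 fold change of -0.89 (SE 0.36, limma adjusted p = 1). It was -0.50 without the 2 low libraries. Sult5a1 was highest in young control library 1, where most members were low.

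Ces3b, the neighbour of Ces3a, was at 182, 289.7, 217 and 172 TPM in young control and at 178, 79.1, 172 and 166 TPM in aged/doxo liver. That is a log2 fold change of -0.57 (SE 0.28, limma adjusted p = 1), and -0.29 without aged/doxo library 2. As a share of the Ces3 to Ces5 sum, which whole-library scaling leaves as it is, Ces3b took 16.8%, 16.6%, 15.4% and 15.3% in young control, 13.4%, 12.7%, 13.5% and 13.9% in aged/doxo and 14.1%, 13.6%, 16.0% and 16.7% in treated liver. This share was looked at after the levels were seen and has no test. Ces3a and Ces3b share sequence, so the share also rests on how the estimator divided their common reads. Ugt2b1 was at 215, 362, 296 and 255 TPM against 318, 91.9, 256 and 177 TPM, with a log2 fold change of -0.53 (SE 0.33, limma adjusted p = 1), and -0.18 without aged/doxo library 2.

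For the most abundant member of each family the groups overlapped and every interval held 0. Ces1c was at 759, 1406, 1129 and 999 TPM in young control and at 1355, 589, 1425 and 1181 TPM in aged/doxo liver, with a log2 fold change of 0.04 (interval -0.56 to 0.64, limma adjusted p = 1). Ces3a was at 899, 1455, 1189.7 and 952 TPM against 1142, 543, 1105 and 1024 TPM (log2 fold change -0.27, interval -0.81 to 0.27, and -0.019 without aged/doxo library 2). Ugt2b5 was at 374, 483, 383 and 389 TPM against 593, 252, 417 and 369 TPM (-0.06, interval -0.55 to 0.44). In each of the 3, aged/doxo library 2 was lowest. Without it Ces1c was at 0.33 and Ugt2b5 at 0.15.

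Sult2a8 was at 288, 251, 262 and 213 TPM in young control and at 265, 149.9, 386 and 238 TPM in aged/doxo liver, a log2 fold change of -0.04 (interval -0.58 to 0.51). Sult1a1 was at 130.3, 127, 134 and 178 TPM against 138, 59.3, 163 and 176 TPM, a log2 fold change of -0.19 (interval -0.84 to 0.46). Ces2a, an intestinal and hepatic carboxylesterase, was at 157, 302, 237 and 229 TPM against 253, 184, 199 and 223 TPM, a log2 fold change of -0.08 (interval -0.54 to 0.38). Here young control library 1 was the lowest of the 8. Ugt3a2 was at 58.7, 164, 128 and 123.1 TPM against 166, 35.3, 130.4 and 81.6 TPM, a log2 fold change of -0.32 (interval -1.25 to 0.62). Ugt1a7c had a log2 fold change of -0.05 (interval -0.61 to 0.50). Without aged/doxo library 2 the values were 0.20 for Sult2a8, 0.16 for Sult1a1, -0.010 for Ces2a, 0.12 for Ugt3a2 and 0.14 for Ugt1a7c.

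**Figure D5:**
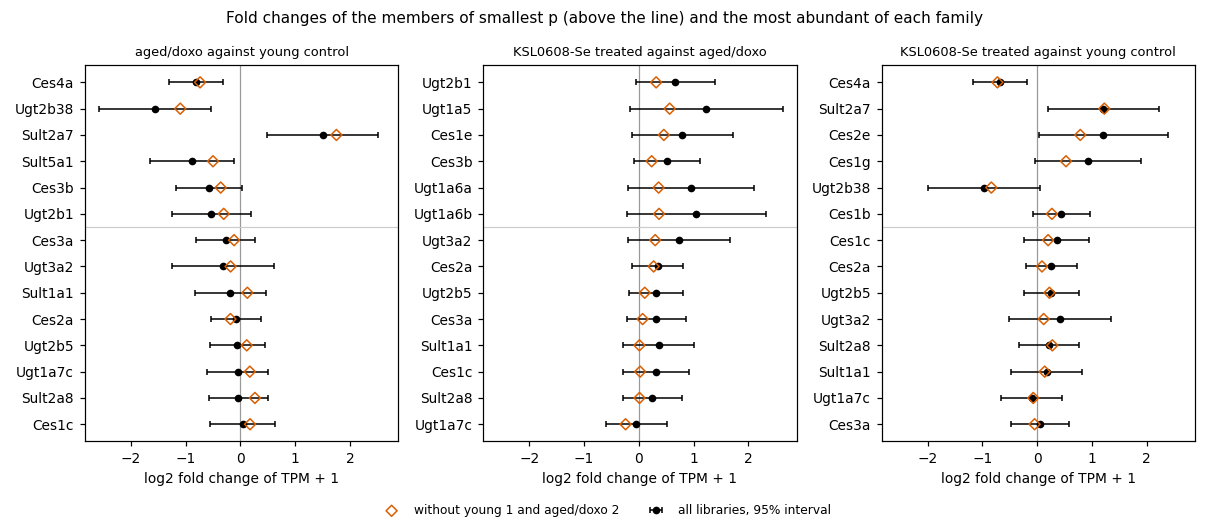
Log2 fold change of TPM + 1 with its 95% interval in the 3 comparisons, for the 6 members of smallest p (above the line) and the most abundant member of each family (below it). Open diamonds give the value with the 2 low libraries left out. In KSL0608-Se treated against aged/doxo every interval holds 0, and the diamonds of the 6 upper members lie nearer to 0 than the points.

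In KSL0608-Se treated against aged/doxo, 0 of 35 members passed limma's adjusted p of 0.05 (1 of 10883 genes, 0.00919%), and 0 lay under an unadjusted p of 0.05, where 4.77% of all genes did. The log2 fold change was positive for 32 of 35, with a median of 0.49, beside 0.30 over all genes, of which 81.0% were positive. Without aged/doxo library 2 the medians were 0.16 and 0.13. Under median-of-ratios scaling, which moves the median of all genes by -0.30, 20 of 35 (57.1%) were positive, beside 49.4% of all genes. The members' median was then 0.12. No member's groups were apart, where 2.77% of all genes were higher and 0.358% lower without overlap. Without aged/doxo library 1, 13 members lay under an unadjusted p of 0.05, as did 22.7% of all genes, and the smallest adjusted p of a member was 0.216.

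The members of smallest p were 3 Ugt1a genes and Ugt2b1, Ces1e and Ces3b. Ugt2b1 was at 318, 91.9, 256 and 177 TPM in aged/doxo and at 261, 271, 298 and 400.1 TPM in treated liver, a log2 fold change of 0.66 (SE 0.33, interval -0.06 to 1.39, limma adjusted p = 0.427). It was 0.32 without aged/doxo library 2. Ces1e, a carboxylesterase of the endoplasmic reticulum, was at 98.2, 32.9, 127 and 50.1 TPM against 105, 142, 126 and 102 TPM, and the treated libraries lay within or above the aged/doxo range. Its log2 fold change was 0.79 (SE 0.43, limma adjusted p = 0.427), and 0.46 without aged/doxo library 2. Ces3b was at 165, 198, 201 and 256 TPM in treated liver, a log2 fold change of 0.51 (SE 0.28, limma adjusted p = 0.427), and 0.23 without that library.

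Ugt1a5 was at 38.2, 3.55, 25.2 and 23.5 TPM in aged/doxo and at 35.2, 56.9, 38.3 and 41.5 TPM in treated liver, a log2 fold change of 1.23 (SE 0.64, limma adjusted p = 0.427). Ugt1a6a, a phenol-conjugating enzyme, was at 68.7, 9.46, 64.2 and 34.0 TPM against 56.3, 78.2, 70.0 and 71.8 TPM, a log2 fold change of 0.95 (SE 0.53). Ugt1a6b was at 59.3, 6.35, 49.7 and 37.1 TPM against 48.8, 71.7, 64.0 and 66.1 TPM, a log2 fold change of 1.05 (SE 0.58). Aged/doxo library 2 lay far under the rest in all 3. Without it the values were 0.56, 0.36 and 0.37. Ugt1a7c, which shares their last exons, was at -0.05 (interval -0.61 to 0.51), and at -0.24 without it.

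Among the most abundant members, Ces1c was at 1166, 1486, 1271 and 1453 TPM in treated liver, a log2 fold change of 0.31 against aged/doxo (interval -0.29 to 0.91) and of 0.02 without aged/doxo library 2. Ces3a was at 1004, 1253, 1059.9 and 1276 TPM (0.32, interval -0.22 to 0.86, and 0.069 without that library). Ugt2b5 was at 475, 492, 505 and 469 TPM (0.32, interval -0.18 to 0.81, and 0.11 without it). Ces2a was at 229, 298, 267 and 293 TPM (0.34, interval -0.12 to 0.80). These treated libraries lay close together, inside or above the aged/doxo range. Sult2a8, at 278, 264, 333 and 298 TPM, and Sult1a1, at 137, 157, 179 and 167 TPM, had log2 fold changes of 0.25 (interval -0.29 to 0.79) and 0.36 (interval -0.29 to 1.01), both 0.01 without aged/doxo library 2. Ugt3a2 was at 116, 161, 159.9 and 164 TPM (0.73, interval -0.20 to 1.67), and its value without that library was 0.30.

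In KSL0608-Se treated against young control, 0 of 35 members passed (3 of 10883 genes, 0.0276%). The limma unadjusted p was under 0.05 for 3 members, 2 higher and 1 lower in treated liver, where 3.4% of all genes lay. Ces4a and Sult2a7 are among the 3, so no weight is put on this count. With a mean of at least 5 TPM required, 1 of 32 members lay there, beside 2.38% of all genes. Of the 35, 30 (85.7%) had positive log2 fold changes, beside 84.0% of all genes. The members' median was 0.35, beside 0.23 over all genes. Under median-of-ratios scaling, which moves the median of all genes by -0.23, 18 of 35 (51.4%) were positive with a median of 0.07. Of all genes 49.8% were then positive. A limma unadjusted p under 0.05 was reached there by 6 members (17.1%) and by 3.40% of all genes. Over all alternatives 1 to 8 members reached it, and 1.73% to 6.33% of all genes. Without the 2 low libraries 27 of 35 (77.1%) were positive, beside 72.5% of all genes, with a median of 0.16, beside 0.09 over all genes. The comparisons share their libraries, so their values for one gene are not independent.

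Ces2e (chr8:104926260-104934672), a carboxylesterase of liver and intestine, was at 29.7, 87.7, 94.3 and 113 TPM in young control and at 139, 212, 176 and 159 TPM in treated liver, with aged/doxo at 160.1, 23.4, 139.9 and 101 TPM. All treated libraries lay above all young control libraries. The log2 fold change against young control was 1.21 (SE 0.55, interval 0.02 to 2.39, limma adjusted p = 0.734), and 0.79 without young control library 1. Ces1g, which hydrolyses triacylglycerol in the liver, was at 27.8, 89.7, 85.5 and 86.7 TPM in young control, at 113, 29.2, 106 and 87.8 TPM in aged/doxo and at 95.7, 148, 132 and 135 TPM in treated liver. Its log2 fold change was 0.93 (SE 0.45, limma adjusted p = 0.734), and 0.52 without young control library 1. With Sult1b1 and Ugt2b36, these were the 4 members higher in treated liver without overlap, where 3.66% of all genes were.

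Ces4a was at 0.91, 0.79, 0.50 and 1.22 TPM in treated liver, under every young control library (log2 fold change -0.68, SE 0.23, interval -1.17 to -0.18, limma adjusted p = 0.734). It was the single member lower without overlap, where 0.358% of all genes were. As said above, Ces4a reached the mean of 1 TPM only through young control, so no weight is put on this or on its interval. The same holds for Sult2a7, which reached that mean through the aged/doxo and treated groups. Sult2a7 was at 3.15, 3.45, 10.7 and 0.77 TPM in treated liver, and library 4 fell in the young control range (log2 fold change 1.21, SE 0.47, limma adjusted p = 0.734). Ugt2b38 was at 7.07, 3.02, 3.95 and 8.01 TPM, with library 4 in the young control range and the other 3 under it (log2 fold change -0.98, SE 0.47, limma adjusted p = 0.734). Ces1b, the low neighbour of Ces1c, was at 19.2, 33.3, 34.3 and 26.5 TPM in young control and at 31.4, 47.6, 33.0 and 40.98 TPM in treated liver, a log2 fold change of 0.44 (SE 0.24, limma adjusted p = 0.734), and 0.27 without young control library 1.

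Against young control the most abundant members had log2 fold changes of 0.35 for Ces1c (interval -0.25 to 0.95), 0.05 for Ces3a (-0.49 to 0.59), 0.26 for Ugt2b5 (-0.24 to 0.76), 0.26 for Ces2a (-0.20 to 0.72) and 0.21 for Sult2a8 (-0.33 to 0.75). For Sult1a1 it was 0.17 (-0.47 to 0.82), for Ugt3a2 0.42 (-0.51 to 1.35) and for Ugt1a7c -0.10 (-0.66 to 0.45). Every one of these intervals holds 0. Without young control library 1 the values were 0.20 for Ces1c, -0.048 for Ces3a, 0.087 for Ces2a and 0.12 for Ugt3a2.

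In 12 lists of genes that supply, remove, carry or regulate around these enzymes, 0 genes passed limma's adjusted p in any comparison. Of the 10 genes that make or move UDP-glucuronate precursors, 2 had positive and 8 negative log2 fold changes in aged/doxo against young control (median -0.05). In treated against aged/doxo liver 9 had positive ones (median 0.43). Of all genes, 35.3% and 81.0% were positive in these comparisons. Ugp2, which makes UDP-glucose, averaged 88.7 ± 12.6 TPM in young control, 84.7 ± 32.6 in aged/doxo and 120.02 ± 17.7 in treated liver. The 7 tested genes of PAPS supply and sulfate handling had medians of -0.10 in aged/doxo against young control, 0.46 in treated against aged/doxo and 0.36 in treated against young control. The 9 deconjugating enzymes had medians of -0.17, 0.54 and 0.30 in that order, the 6 conjugate exporters 0.03, 0.33 and 0.31, and the 8 organic anion uptake carriers -0.16, 0.40 and 0.35. Over all genes the medians were -0.08, 0.30 and 0.23.

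Many of these medians moved when low libraries were left out. Without aged/doxo library 2 the first pair of medians was 0.17 and 0.18 for UDP-glucuronate supply, 0.18 and 0.13 for PAPS supply, 0.06 and 0.25 for deconjugating enzymes, 0.12 and 0.13 for exporters and 0.16 and 0.14 for uptake carriers, beside 0.10 and 0.13 over all genes. Without that library, aged/doxo against young control thus turned positive for 4 of these 5 lists, exporters being positive either way. Without young control library 1 as well, that comparison was at 0.05, -0.06, -0.16, 0.04 and 0.04 in the same order, beside -0.04 over all genes. PAPS supply and deconjugating enzymes were thus negative again, the latter near their value in all libraries. With both low libraries left out, the medians in treated against young control were 0.19, 0.14, 0.05, 0.15 and 0.16 in the same order of lists, beside 0.09 over all genes.

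Abcc2, the canalicular exporter of glucuronides, averaged 53.9 ± 15.7, 59.3 ± 15.5 and 80.7 ± 17.1 TPM in young control, aged/doxo and treated liver (treated against young control 0.59, SE 0.26, limma adjusted p = 0.734). The 15 tested other esterases and hydrolases had medians of -0.20, 0.46 and 0.27, and the first pair was 0.23 and 0.13 without aged/doxo library 2. Ephx1, the microsomal epoxide hydrolase, averaged 197 ± 55.7, 318 ± 142 and 361 ± 65.2 TPM, with a log2 fold change of 0.90 in treated against young control (SE 0.33, limma adjusted p = 0.734). The 22 tested regulators had medians of -0.15, 0.48 and 0.31, and the 9 sentinel targets of AHR, CAR, PXR and PPARA, receptors that induce many of these enzymes, 0.17, 0.60 and 0.53. Without aged/doxo library 2 the first pair was 0.04 and 0.28 for the regulators and 0.54 and 0.03 for the sentinel targets. With both low libraries left out, aged/doxo against young control was at 0.02 for other esterases, -0.13 for regulators and 0.18 for sentinel targets. Treated against young control was then at 0.13 for the other esterases, 0.09 for the regulators and 0.39 for the sentinel targets. Nfe2l2, the oxidative stress regulator, was at 0.97 in treated against young control (SE 0.29, limma adjusted p = 0.734).

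The log2 fold change of aged/doxo against young control was negative for 10 of 10 male-biased liver genes. Of all genes 35.3% were positive there. The list's median was -0.52, and -0.31 without the 2 low libraries, beside -0.08 and -0.04 over all genes. In treated against aged/doxo the log2 fold change was positive for 10 of 10, where 81.0% of all genes were positive. The median was 0.48, beside 0.30 over all genes, and without aged/doxo library 2 it was 0.05, beside 0.13. In treated against young control 5 were positive and 5 negative, with a median of -0.11, beside 0.23 over all genes. None passed the adjusted threshold. Selenbp2 averaged 792 ± 326 TPM in young control, 335 ± 195 in aged/doxo and 471 ± 294 in treated liver (aged/doxo against young control -1.40, SE 0.53, limma adjusted p = 1). The 7 tested female-biased genes had medians of 0.28, 0.20 and 0.33 in the 3 comparisons, and the first pair was 0.24 and -0.02 without aged/doxo library 2. The 12 pericentral genes had medians of 0.01, 0.24 and 0.31 and the 13 periportal genes -0.16, 0.37 and 0.25. Without aged/doxo library 2 the first pair was 0.25 and -0.01 for pericentral and 0.06 and 0.15 for periportal genes. With both low libraries left out, aged/doxo against young control was at 0.46 for female-biased, 0.08 for pericentral and -0.09 for periportal genes. Treated against young control was then at 0.12 for female-biased, 0.12 for pericentral and 0.11 for periportal genes.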

How the data were processed

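RNA-seq of liver total RNA (TRIzol, DNase I treatment, Illumina libraries) was analysed in 12 libraries of 3 groups. The authors deposited TPM per gene and library. The submitters' processing notes name fastp, HISAT and RSEM without versions or order, and the build and annotation behind the table were not given in the sources used here. Gene positions, exons and transcripts were taken from GENCODE M21 (GRCm38) and promoters from RefSeq. Depth cannot be read from TPM, so no counting intervals are given.

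Genes with a mean of at least 1 TPM over the 12 libraries (10883 of 55903) were tested as log2(TPM + 1) with limma 3.58.1 in R 4.3.3, with group as the only term, a mean-variance trend, two-sided p-values and Benjamini-Hochberg adjustment over all tested genes at 0.05. A fold change on this scale understates that of low genes. Named in each comparison are the 6 members of smallest p and the most abundant member of each family, and any others were chosen after their values were seen. Members, lists and tests were chosen with earlier results of these data known. Sequence sharing was counted over 50-base stretches of the transcript whose length matches the table, against every GENCODE M21 transcript of other genes. Alternatives were other pseudocounts, filters and scalings, a replicate block and leaving out libraries.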

Additional observations from a re-analysis of the deposited data

Results flagged for a closer look

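Groups of 4 libraries were checked for a single library far from the rest, for 21 named members and the 8 family sums. Of 87 such groups 6 had one, where chance gives about 1 in 20. Ugt2b38 was at 11.72 TPM in aged/doxo library 1, and the next library was at 2.40 TPM. Ugt2b5 was at 482.95 TPM in young control library 2, with the next at 388.65 TPM. Sult1a1 was at 178.06 TPM in young control library 4, with the next at 134.18 TPM.

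The other three were low. Ugt3a2 was at 115.51 TPM in treated library 1, with the next at 159.89 TPM. Ces1g was at 27.81 TPM in young control library 1, with the next at 85.46 TPM. Ces3b was at 79.1 TPM in aged/doxo library 2, with the next at 165.97 TPM, and this is the library whose mitochondrial share was 27.6%, whose part in the value was not tested.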

How the results depend on the processing

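In every comparison 0 members passed the adjusted threshold under each alternative run, and the smallest adjusted p of a member was 0.202. Of 42 fold changes followed, 23 kept their sign and 19 did not. Under median-of-ratios scaling, treated against aged/doxo was -0.066 for Ces1c, -0.036 for Ces2a, -0.059 for Ces3a, -0.015 for Sult1a1, -0.13 for Sult2a8 and -0.062 for Ugt2b5. Treated against young control was then -0.024 for Ces2a, -0.23 for Ces3a, -0.11 for Sult1a1, -0.073 for Sult2a8 and -0.024 for Ugt2b5, and aged/doxo against young control was 0.012 for Ces2a, 0.057 for Sult2a8, 0.040 for Ugt1a7c and 0.038 for Ugt2b5. That scaling moves the median of all genes by 0.08, -0.30 and -0.23 in aged/doxo against young control, treated against aged/doxo and treated against young control. With quantile scaling, Ces3a was at -0.075 in treated against young control, and Sult2a8 at 0.029, Ugt1a7c at 0.0098 and Ugt2b5 at 0.00214 in aged/doxo against young control. With both low libraries left out, Ces3a was at -0.048 in treated against young control, and Sult1a1 at 0.13, Sult2a8 at 0.26, Ugt1a7c at 0.17 and Ugt2b5 at 0.11 in aged/doxo against young control. Leaving out 1 library at a time gave ranges in aged/doxo against young control of -0.12 to 0.33 for Ces1c, -0.25 to 0.059 for Ces2a, -0.35 to 0.16 for Sult1a1, -0.25 to 0.20 for Sult2a8, -0.27 to 0.14 for Ugt1a7c, -0.26 to 0.15 for Ugt2b5 and -0.62 to 0.12 for Ugt3a2. The range was -0.24 to 0.16 for Ugt1a7c in treated against aged/doxo and -0.048 to 0.18 for Ces3a in treated against young control. The causes of changes under the scalings were not tested.

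With the replicate block 0 members passed in each comparison, and 4, 0 and 3 lay under a limma unadjusted p of 0.05. Of all genes, 1.77%, 2.50% and 2.67% did. Deviations of same-numbered libraries correlated between -0.58 and 0.39, so the numbers were not taken to pair libraries. Members under 1 TPM were too low to compare.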
